A study of Mus musculus with 15 samples.

Results

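The messages of 10 amino acid transporters were followed in the ventricle of the E11.5 mouse embryo: Slc7a1, Slc7a3, Slc7a5, Slc7a6, Slc3a2, Slc1a4, Slc1a5, Slc38a1, Slc38a2 and Slc6a9. They were chosen by name, as plasma membrane carriers of neutral and cationic amino acids, and are 10 of the 78317 genes in the tables. This choice, and that of the gene lists compared with them, was made with earlier results of these data known. All 10 passed the filter on low counts, which kept 20269 genes. Each of the 10 was detected in each of the 15 libraries, from 17 fragments of Slc7a3 in its lowest library to 19794 of Slc38a2 in its highest.

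The libraries came from embryos of the C57BL/6 strain, all with batch label 1, in which Atf4 can be cut by Cre recombinase. In the line called CDS the loxP sites flank exons with the coding sequence and leave the polyadenylation signal in place, and in the line called PAS they flank that signal. Knockouts of both lines carried Xmlc2-Cre, which acts in cardiomyocytes, so endocardial, epicardial, mesenchymal and blood cells keep the gene. The control genotype is labelled only as control, which does not say whether it carried loxP sites or Cre. There were 4 CDS knockouts, 4 CDS controls, 4 PAS knockouts and 3 PAS controls. The labels do not say whether a library is 1 embryo or a pool.

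Amino acid transporters set how fast a growing cell can refill the pools that feed protein synthesis. Slc7a5 and Slc7a6 are light chains that carry amino acids only when bound to the heavy chain Slc3a2, which brings them to the cell surface. Slc1a5 and Slc38a1 and Slc38a2 bring in glutamine and other small neutral amino acids, Slc1a4 carries alanine, serine, cysteine and threonine, Slc7a1 and Slc7a3 carry arginine and lysine, and Slc6a9 carries glycine. ATF4, the protein of Atf4, is the transcription factor at the end of the integrated stress response and binds C/EBP-ATF response elements. Carriers of these families and genes of amino acid synthesis and tRNA charging are among its known targets.

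Totals per library were 30376847 to 46472141 counts in the CDS line and 22623499 to 29315724 in the PAS line. Atf4, counted over the whole gene, stood at 39.6 to 48.1 normalised CPM (counts per library, rescaled so that libraries compare) in CDS knockouts against 112 to 116 in CDS controls. It stood at 259 to 304 CPM in the libraries labelled PAS knockout against 92.2 to 100.1 in PAS controls. Counts of the targeted gene were therefore lower in the libraries labelled CDS knockout and higher in those labelled PAS knockout. Such counts do not measure intact message or ATF4 protein. Groups are named here as the labels name them. CDS knockout 3 stood apart from its replicates. Its 3 pairs had a chi-square per degree of freedom of 50.8 to 64.0, and all other pairs at most 13.9. Cardiomyocyte markers, with Tnnt2 at 3241 to 4384 CPM, were abundant in every library. The extraction protocol in the labels names cortical neurons, and a list of 10 neural and choroid plexus markers summed to 13.97 to 19.45 CPM over the PAS line and 30.6 to 233 CPM over the CDS line. The highest of them were the choroid plexus genes Ttr, up to 154 CPM, and Enpp2, up to 64.2 CPM, followed by the neuronal gene Tubb3, up to 16.2 CPM, each in a CDS knockout. In bulk tissue, fewer cells of a type and less RNA per cell cannot be told apart.

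Promoter windows were searched for the core of the C/EBP-ATF response element, TGATGNAA, and for the cAMP response element, TGACGTCA, on both strands. Windows reach from 250 bases before to 50 after the start site in RefSeq (GRCm38.p6), and 6 of the 10 transporters had 10 of them. Slc1a4 was the only one of those 6 with TGATGNAA, on the strand opposite to the gene and across its start site. The 30 bases around that match are printed first, with the match in capitals. For comparison, the known elements in the promoters of Asns, the asparagine synthetase gene, and Slc7a11, the cystine carrier that also pairs with Slc3a2, follow in the same form.
Slc1a4, chr11:20332699-20332728, minus strand: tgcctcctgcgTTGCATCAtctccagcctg
Asns, chr6:7693214-7693243, minus strand: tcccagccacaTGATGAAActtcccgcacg
Slc7a11, chr3:50443661-50443690, minus strand: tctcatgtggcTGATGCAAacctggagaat
Slc7a11, chr3:50443642-50443671, minus strand: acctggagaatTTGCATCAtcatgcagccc
TGATGNAA was present in 3.97% of all 32851 windows and, counted by gene, in any window of 4.51% of 27025 genes. TGACGTCA, in none of the 10 windows of the transporters, was present in 1.79% of all windows. Both motifs were absent from the windows of Slc7a1, Slc7a6, Slc3a2, Slc38a2 and Slc6a9. Sequence outside the windows, introns included, was not searched, so elements there would be missed. A match describes the letters and not binding.

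Slc3a2 was the only transporter with every knockout below every control of its own line in both lines, so the 250 bases upstream of its start, which have no match, are printed as well.
Slc3a2, chr19:8713898-8714147, minus strand: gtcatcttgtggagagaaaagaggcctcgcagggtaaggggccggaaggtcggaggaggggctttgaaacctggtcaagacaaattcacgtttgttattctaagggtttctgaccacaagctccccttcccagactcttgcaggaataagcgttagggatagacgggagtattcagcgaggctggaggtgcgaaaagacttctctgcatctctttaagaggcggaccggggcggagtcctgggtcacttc

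The first question was how much of each carrier message the ventricle holds. Levels were set per length, as CPM per kb of counted exon, over the 7 control libraries. Slc38a2, a sodium-coupled carrier of small neutral amino acids, stood highest of the 10 at 46.8 ± 3.35 CPM per kb (SD, n = 7). It held 34.0% ± 1.89 (SD, n = 7) of the sum over the 10 genes. Its lowest control lay above the highest of Slc38a1, which had 16 ± 0.689 CPM per kb (SD, n = 7). Slc3a2 followed at 15.5 ± 0.341, Slc7a6 at 15.1 ± 0.616, Slc1a5 at 14.5 ± 0.942, Slc7a5 at 13.7 ± 1.503 and Slc7a1 at 10.97 ± 0.457 (all SD, n = 7). From Slc38a1 down to Slc7a1, each gene overlapped the next in order, so neighbours there cannot be ranked beyond the spread of libraries. The order also depends on the counted exon length, which need not be the length of the messages present. That length was 17236 bases for Slc38a1 and 3529 for Slc3a2, and before division by it their control means were 276 and 54.8 CPM.

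The other three members were much lower and separate from one another. Slc1a4 had 3.37 ± 0.350, Slc6a9 1.54 ± 0.235 and Slc7a3 0.328 ± 0.0117 CPM per kb (SD, n = 7 each). Among all tested genes, per length, Slc38a2 lay at the 95.9th percentile, the next 6 transporters between 78.4 and 85.3, and Slc7a3 at 19.9. Of the pair of arginine and lysine carriers here, Slc7a1 thus had by far the higher message level.

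**Figure D1:**
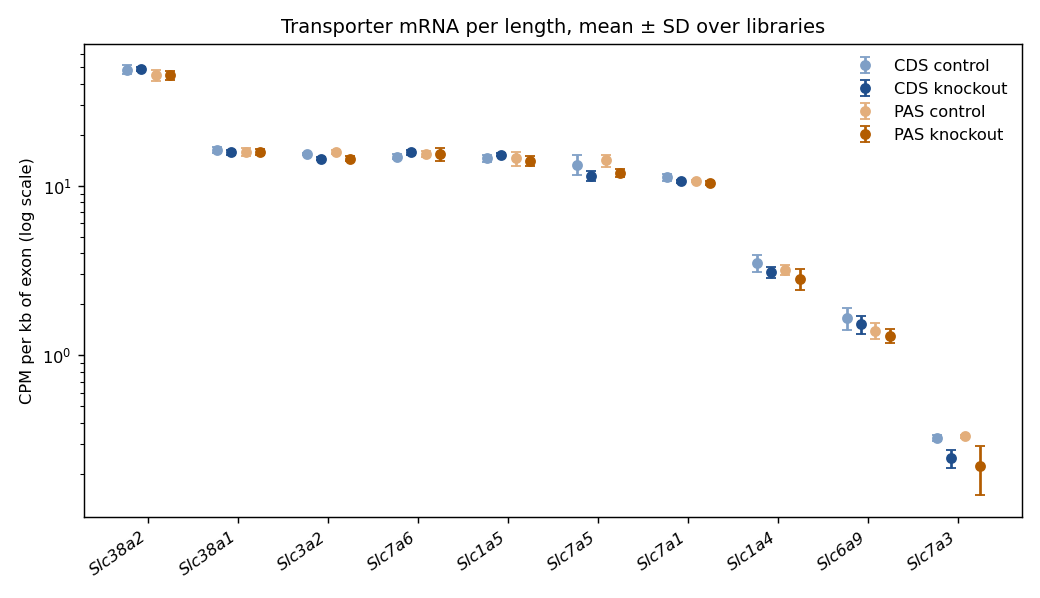
Level of each transporter per length (normalised CPM per kb of exon, log axis) in the 4 groups, as mean (point) and SD (bar) over 4 libraries or, for PAS controls, 3. Slc38a2 lies alone at the top in every group (46.8 over all controls), 6 genes lie together (10.97 to 16 over all controls), and Slc1a4, Slc6a9 and Slc7a3 lie apart below.

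The main comparison asked which of these carriers change when Atf4 is targeted in cardiomyocytes. None of the 10 passed the test across all genes, in either line, in the mean of both lines' changes, or in the difference between lines (edgeR's quasi-likelihood F test with adjustment by Benjamini-Hochberg, threshold 0.05). Over all tested genes, 0.0543% were called in the CDS line, 0.00987% in the PAS line, 0.0789% in the mean of both and 0.00493% in the difference. DESeq2 and limma-voom also called 0 transporters. At an unadjusted p under 0.05, edgeR gave 2 of 10 in the CDS line (2.62% of all genes), 3 of 10 in the PAS line (5.24%), 5 of 10 in the mean of both (3.7%) and 0 of 10 in the difference (4.16%). Those 5 were Slc3a2, Slc7a5, Slc7a3, Slc1a4 and Slc7a1, each with a negative value. The mean of both lines uses the same libraries as the tests in each line and adds no further samples. Because the 10 were chosen with earlier results of these data known, their shares beside those of all genes are a description.

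Signs leaned to the negative side. Of the 10 transporters, 7 had a log2 change below 0 in the CDS line, with a median of -0.09 (0.942 of control), and 9 did in the PAS line, with a median of -0.07 (0.949 of control). Over all tested genes 50.6% of values were negative in each line and the median was -0.0011 and -0.0015. Cell type markers also leaned. Among CDS knockouts, 8 of 10 endothelial and endocardial markers were negative (median -0.10, 4 with an unadjusted p under 0.05), and their sum was 1792 to 1898 CPM against 1933 to 2020 in CDS controls, with no overlap. In that line 8 of 8 cardiomyocyte markers were negative (median -0.06) and 8 of 8 mesenchymal markers positive (median 0.18). For PAS, 3 of 10 endothelial and endocardial, 6 of 8 cardiomyocyte and 8 of 8 mesenchymal markers were negative (medians 0.03, -0.05 and -0.07). None of these markers was called, and their part in the values of the transporters was not tested. The values ran from -0.38 (Slc7a3) to 0.08 (Slc7a6) in the CDS line and from -0.58 (Slc7a3) to 0.01 (Slc38a1) in the PAS line.

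**Figure D2:**
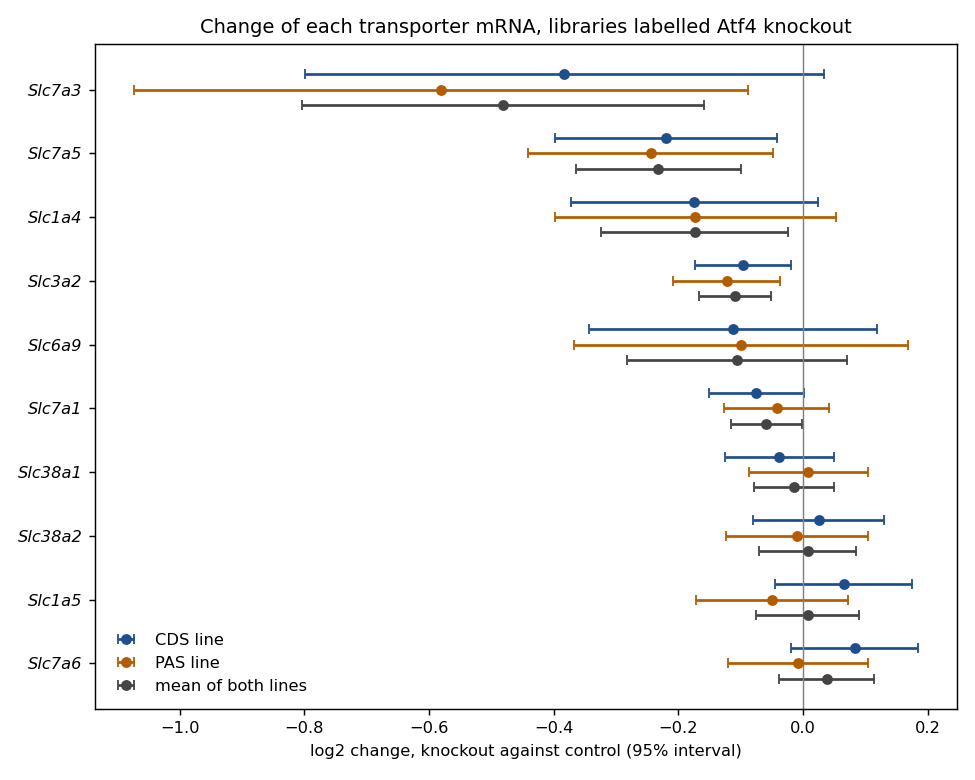
Log2 change of each transporter, knockout against control, in the CDS line, the PAS line and the mean of both, with the 95% interval from edgeR's fit. The intervals of Slc3a2 and Slc7a5 lie below 0 in all 3, those of Slc38a1, Slc38a2, Slc1a5, Slc7a6 and Slc6a9 cross 0 in all 3, and that of Slc7a3 is the widest.

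Slc3a2, the heavy chain, is on chromosome 19 (8684246 to 8700733, minus strand, GRCm39; ENSMUSG00000010095.14). Its CPM was 51.7, 49.6, 50.2 and 51.8 in CDS knockouts against 54.7, 53.5, 53.9 and 55.1 in CDS controls. Across PAS libraries it was 53.5, 49.7, 50.3 and 50.4 in knockouts against 54.99, 57.2 and 54.3 in controls. Every knockout lay below every control of its own line, although PAS knockout 1 came close to the lowest PAS control. The log2 change was -0.10 ± 0.04 (SE, ratio 0.935) in the CDS knockouts and -0.12 ± 0.04 (SE, ratio 0.918) in the PAS knockouts, with edgeR adjusted p of 0.9998 and 0.934. The mean of both was -0.11 ± 0.03 (SE), or 0.927 of control with a 95% interval from 0.890 to 0.965. That value had an unadjusted p of 0.000706, rank 27 of 20269, and an edgeR Benjamini-Hochberg adjusted p of 0.530.

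Separation of knockouts from controls in both lines at once was seen for 19 of 20269 genes (0.0937%), and Slc3a2 was the only transporter among them. Of the other 18, Aars, Cars, Iars, Mars, Nars and Yars charge tRNAs, and Mthfd2, Phgdh and Pycr1 make amino acids or one-carbon units. These names were read off after their values were seen. In a single line, every knockout lay below every control for Slc3a2 and Slc7a3 in the CDS line (1.32% of all genes) and for Slc3a2 and Slc7a5 in the PAS line (2.38%). No transporter had every knockout above every control, as 1.48% and 2.21% of all genes did.

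The counts of Slc3a2 do not separate strands, and 386 bases (10.9%) of its exons overlap Snhg1, a noncoding host of small nucleolar RNAs on the opposite strand. Snhg1 stood at 38.9 ± 2.60 CPM in CDS knockouts (SD, n = 4) and 37.3 ± 1.20 in CDS controls (SD, n = 4). PAS knockouts had 34.8 ± 2.21 (SD, n = 4) and PAS controls 33.6 ± 1.33 (SD, n = 3). Its log2 change was thus 0.06 ± 0.05 and 0.05 ± 0.06 (SE), opposite in sign to that of Slc3a2. Without CDS knockout 3, the library that stands apart, the change of Slc3a2 in the CDS line was -0.09.

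Slc7a5, the light chain of the leucine and other large neutral amino acid carrier, is on chromosome 8 (122607889 to 122634433, minus strand, GRCm39; ENSMUSG00000040010.11). Its CPM was 40.1, 43.6, 39.8 and 46.3 in CDS knockouts and 48.1, 40.4, 55.2 and 53.6 in CDS controls. CDS control 2 sat among the knockouts and the other 3 controls lay above all of them. Its PAS values were 41.8, 44.6, 43.0 and 46.9 in knockouts and 47.3, 54.95 and 54.7 in controls, with no overlap but a narrow gap at PAS control 1. On the log2 scale the change was -0.22 ± 0.08 (SE, ratio 0.859) in CDS knockouts and -0.24 ± 0.09 (SE, ratio 0.844) in PAS knockouts, with edgeR adjusted p of 0.9998 and 0.934. Their mean of -0.23 ± 0.06 corresponds to 0.851 of control, with a 95% interval from 0.777 to 0.933, and its edgeR adjusted p was 0.99961.

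The call on Slc7a5 turned on a few settings. Without CDS control 2 the mean of both lines was -0.27, with an edgeR adjusted p of 0.0115, and with the summed erythroid markers as a covariate it was -0.28, with an adjusted p of 0.0134. With no filter on low counts it was called in the mean (edgeR adjusted p = 1.47e-05, log2 change -0.23) and, just inside the threshold, in the CDS line (edgeR adjusted p = 0.04999, log2 change -0.22). Across all 23 alternatives the mean was negative, from -0.28 to -0.20, and passed in 3, whereas DESeq2 gave an adjusted p of 0.160.

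Slc7a3, the low-level arginine and lysine carrier, lies on the X chromosome (100122816 to 100129626, minus strand, GRCm39; ENSMUSG00000031297.15). Its CPM was 1.04, 1.01, 0.898 and 0.799 in CDS knockouts, from 25 to 45 fragments, against 1.26, 1.16, 1.22 and 1.27 in CDS controls, from 37 to 59. PAS libraries had 0.755, 0.604, 0.762 and 1.23 in knockouts, from 17 to 36 fragments, and 1.29, 1.27 and 1.23 in controls, from 28 to 35. The CDS groups were separate. In the PAS line 3 knockouts lay well below the controls and PAS knockout 4 lay at their level. Its log2 change was -0.38 ± 0.20 (SE, ratio 0.767) in CDS knockouts and -0.58 ± 0.24 (SE, ratio 0.669) in PAS knockouts, with edgeR adjusted p of 0.9998 and 0.934. Their mean was 0.716 of control, the lowest ratio of the 10, with a 95% interval from 0.573 to 0.895 and an edgeR adjusted p of 0.99961. Without PAS knockout 4 the PAS change was -0.84. Counts this low limit the precision, and neural and choroid plexus markers summed to 30.6 to 233 CPM in CDS knockouts against 32.8 to 59.3 in CDS controls, whose part in the level of Slc7a3 was not tested. Without CDS knockouts 3 and 4, an alternative listed with the others, the CDS change of Slc7a3 was -0.26.

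**Figure D3:**
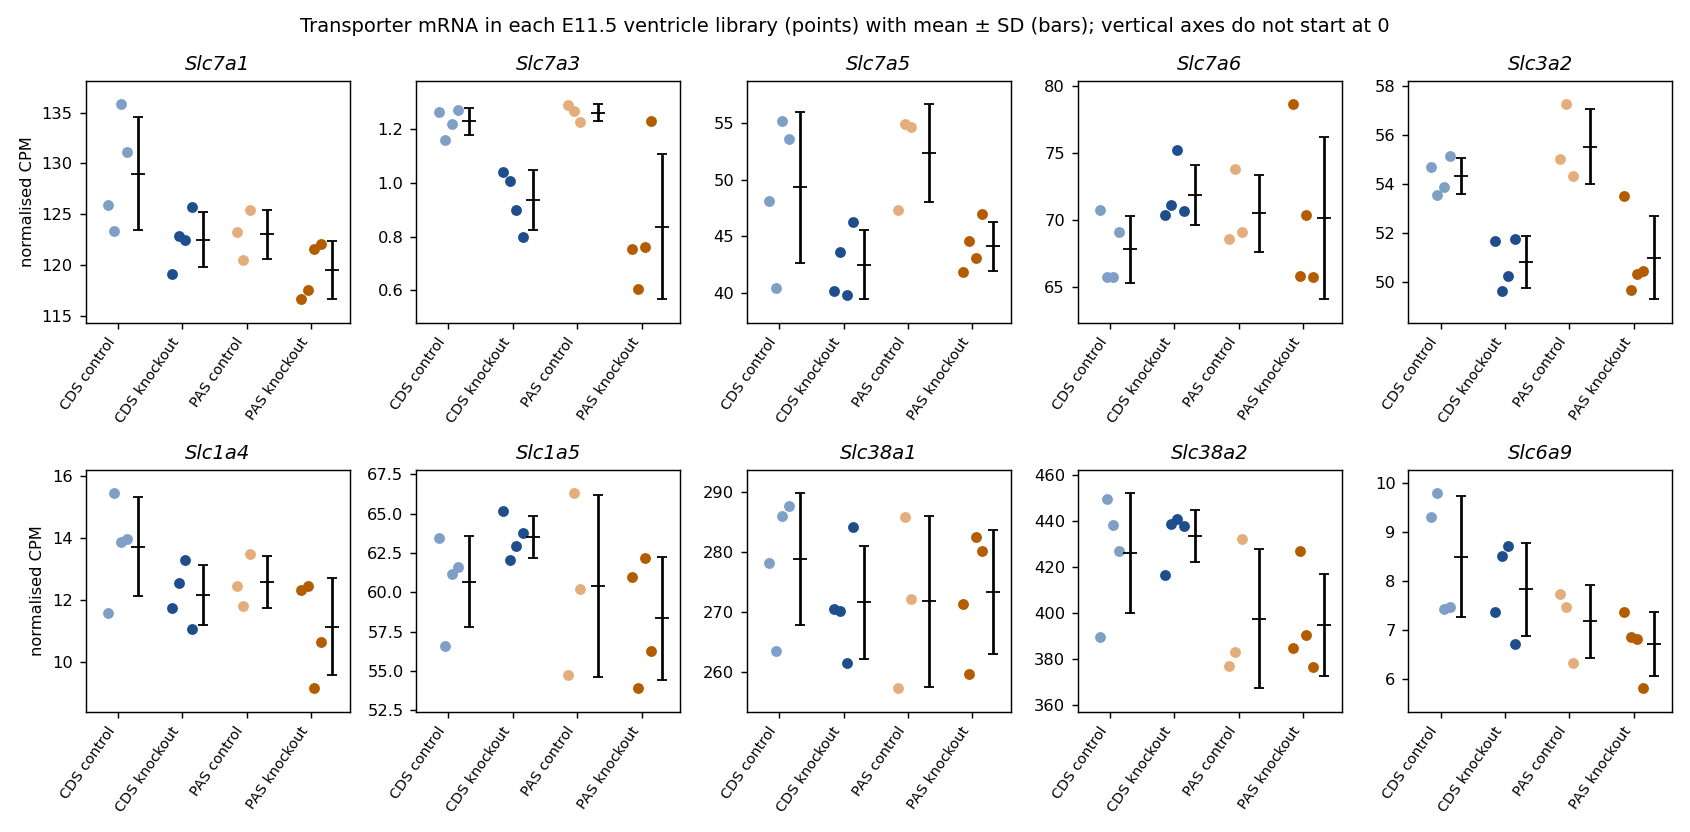
Normalised CPM of the 10 transporters in each library (points) with the mean and SD (bars) for the 4 groups; vertical axes do not start at 0 and differ between panels. Slc3a2 knockouts lie below the controls of their own line in both lines, and CDS control 2 of Slc7a5, at 40.4 CPM, lies among the CDS knockouts.

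Slc7a6, the second light chain, which exchanges arginine and neutral amino acids, lies on the same chromosome as Slc7a5 (8, 106895489 to 106925338, plus strand). It did not share the direction of Slc7a5 in the CDS line. Its CPM was 70.4, 71.1, 75.2 and 70.6 in CDS knockouts against 70.7, 65.7, 65.7 and 69.0 in CDS controls, so 2 knockouts lay above all controls and the other 2 just under the highest control. Its PAS values ranged from 65.7 to 78.6 in knockouts and from 68.5 to 73.8 in controls, which overlap. Its log2 difference was 0.08 ± 0.05 (SE) in CDS knockouts and -0.01 ± 0.05 in PAS knockouts, and the mean of both had a 95% interval of 0.974 to 1.08 of control.

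Because light chains need the heavy chain, their messages were set side by side per length. The light chain partners Slc7a5, Slc7a6, Slc7a7, Slc7a8 and Slc7a11 together, without Slc7a10, summed to 2.19 ± 0.0539 times Slc3a2 in CDS knockouts and 2.12 ± 0.106 in CDS controls (SD, n = 4 each). The same ratio was 2.21 ± 0.0256 in PAS knockouts (SD, n = 4) and 2.15 ± 0.101 in PAS controls (SD, n = 3). Knockouts and controls overlapped in each line, so no shift of this ratio exceeded the spread of libraries. Slc7a5 alone stood at 0.796 ± 0.0568 of Slc3a2 in CDS knockouts and 0.864 ± 0.113 in CDS controls (SD, n = 4 each), and these overlapped. Slc7a6 over Slc7a5 was 1.38 ± 0.127 in CDS knockouts and 1.13 ± 0.157 in CDS controls (SD, n = 4 each). In the PAS line it was 1.30 ± 0.172 (SD, n = 4) and 1.10 ± 0.0752 (SD, n = 3). The means were higher in knockouts of both lines, with overlap of libraries in each.

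The other light chains were minor here. Slc7a7 stood at 5.25 to 7.36 CPM and Slc7a8 at 9.17 to 14.3 CPM over all libraries, and Slc7a11, the light chain of the cystine and glutamate exchanger and a known ATF4 target, at 0.604 to 1.63 CPM. Slc7a10, a further partner of Slc3a2 that is not in the sum above, stood at 0.437 to 1.71 CPM. Its log2 change was 0.24 ± 0.25 (SE) in CDS knockouts and 0.77 ± 0.31 (SE, ratio 1.71) in PAS knockouts. None was called. Slc7a8 had a log2 change of -0.09 ± 0.10 (SE) in CDS knockouts and 0.26 ± 0.12 (SE) in PAS knockouts; the difference of 0.35 ± 0.16 had an edgeR adjusted p of 0.995.

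Slc1a4, the serine and alanine carrier whose start site carries the motif printed above, is on chromosome 11 (20252180 to 20282713, minus strand, GRCm39). Its CPM was 11.7, 12.6, 13.3 and 11.1 in CDS knockouts against 11.6, 15.4, 13.8 and 14.0 in CDS controls, and 12.3, 12.4, 9.15 and 10.6 in PAS knockouts against 12.4, 11.8 and 13.5 in PAS controls. Groups overlapped in both lines, through CDS control 1 and PAS knockouts 1 and 2. Its log2 change was -0.17 ± 0.10 (SE) in CDS knockouts and -0.17 ± 0.11 (SE) in PAS knockouts. The mean of both was 0.887 of control, with a 95% interval from 0.799 to 0.984 and an edgeR adjusted p of 0.99961. A gene model on the opposite strand shares 7.8% of its exon length.

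Slc1a5, the main neutral amino acid exchanger for glutamine, lies on chromosome 7 (16515265 to 16532199, plus strand). It ranged from 62.0 to 65.2 CPM in CDS knockouts, 56.6 to 63.4 in CDS controls, 53.9 to 62.2 in PAS knockouts and 54.7 to 66.3 in PAS controls. All groups overlapped. Its log2 change was 0.07 ± 0.05 (SE) in CDS knockouts and -0.05 ± 0.06 (SE) in PAS knockouts, and the mean of both lay between 0.949 and 1.06 of control (95% interval).

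Slc38a1 and Slc38a2 are neighbours on chromosome 15 (96469299 to 96540794 and 96585273 to 96597611, both minus strand, GRCm39) and carry glutamine and other small neutral amino acids with sodium. Slc38a1 stood at 272 ± 9.35 CPM in CDS knockouts and 279 ± 10.9 in CDS controls (SD, n = 4 each), and at 273 ± 10.3 in PAS knockouts (SD, n = 4) and 272 ± 14.2 in PAS controls (SD, n = 3). Slc38a2, the best known of the set as a gene induced by amino acid shortage, had 417, 439, 441 and 438 CPM in CDS knockouts against 390, 450, 438 and 427 in CDS controls. In the PAS line it had 385, 427, 390 and 377 in knockouts and 377, 383 and 432 in controls. Knockout and control ranges overlapped for both genes in both lines. The mean of both lines was 0.990 of control for Slc38a1 (95% interval 0.946 to 1.04) and 1.01 for Slc38a2 (95% interval 0.953 to 1.06). A fall of the size seen for Slc7a5 (0.851) lies outside both intervals, and a fall of the size seen for Slc3a2 (0.927) lies outside them as well.

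Slc7a1, the main arginine and lysine carrier, is on chromosome 5 (148264220 to 148336714, minus strand). It had 119, 123, 122 and 126 CPM in CDS knockouts against 126, 123, 136 and 131 in CDS controls. It ranged from 117 to 122 in PAS knockouts and from 120.5 to 125 in PAS controls. Knockouts were at the lower side in each line, with overlap in both. Its log2 change was -0.08 ± 0.04 (SE) in CDS knockouts and -0.04 ± 0.04 (SE) in PAS knockouts. The mean of both was 0.960 of control, with a 95% interval from 0.923 to 0.9985 and an edgeR adjusted p of 0.99961.

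Slc6a9, the glycine carrier GLYT1, is on chromosome 4 (117691703 to 117732395, plus strand). Its CPM was 7.36, 8.52, 8.73 and 6.71 in CDS knockouts and 9.31, 9.80, 7.44 and 7.46 in CDS controls, and 7.36, 6.86, 6.82 and 5.805 in PAS knockouts against 7.73, 7.47 and 6.31 in PAS controls. Knockouts and controls overlapped in each line. The log2 change was -0.11 ± 0.11 (SE) in CDS knockouts and -0.10 ± 0.13 (SE) in PAS knockouts. For the mean of both, the 95% interval ran from 0.822 to 1.05 of control. Ccdc24, on the opposite strand, shares 27.8% of its exon length and stood at or under 0.600 CPM.

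The level of Slc6a9 moved from library to library with the summed message of erythroid marker genes. Glycine is a building block of haem, and GLYT1 is known to supply it to developing red cells. The sum of 11 erythroid markers, among them embryonic globins, Alas2 and Klf1, ranged from 1677 to 4543 CPM among CDS knockouts and from 1911 to 4189 among CDS controls. In the PAS line it ranged from 1210 to 2395 in knockouts and 1380 to 3657 in controls, and all 11 markers were detected in every library. On the log scale, Slc6a9 followed that sum over 15 libraries with Pearson's r = 0.856 (two-sided permutation p = 8e-05, 0.0008 after adjustment over the 10 transporters). Spearman's rho was 0.918, with a permutation p of 2e-05, the smallest that 100000 resamples can give, and an adjusted 0.0002. Without the 2 libraries farthest from the median of the sum, r was 0.792 (n = 13).

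The relation held within each line, which were counted separately. It was r = 0.871 over the 8 CDS line libraries (exact permutation p = 0.00699) and r = 0.880 over the 7 PAS line libraries (exact permutation p = 0.00278). For the 9 other transporters the adjusted permutation p was 0.108 or more, with the strongest values for Slc1a4 (r = 0.573) and Slc38a1 (r = -0.564). The erythroid sum had its lowest group median in PAS knockouts (1708 CPM), whose libraries overlapped those of every other group. All 11 erythroid markers had a negative log2 change in the PAS line (median -0.55), none of them called. With the erythroid sum as a covariate, the mean change of Slc6a9 over both lines was -0.02 in place of -0.11. Its PAS value turned to 0.02. Slc7a5 was the only transporter called in that fit, and only in the mean of both lines. The part of red cells in the values of Slc6a9 was not tested.

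**Figure D4:**
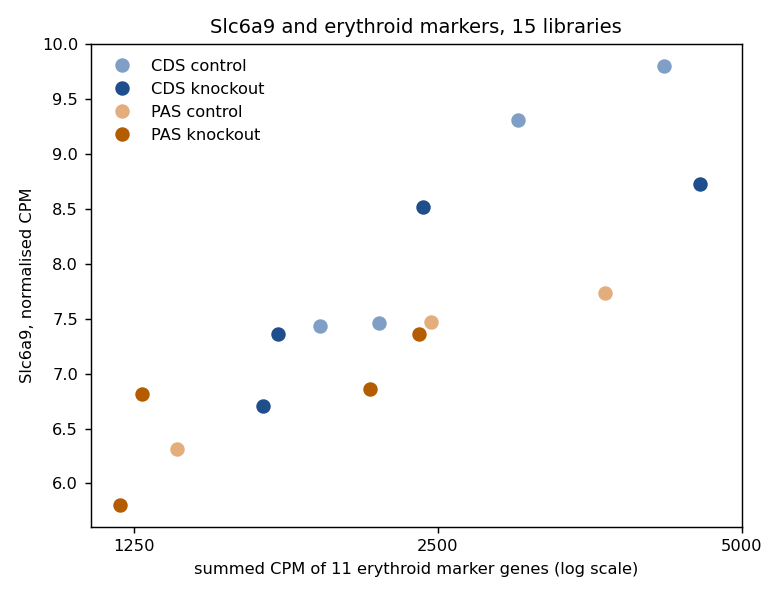
Slc6a9 (normalised CPM) against the summed CPM of 11 erythroid markers (log axis) in the 15 libraries, coloured by group. Libraries with more erythroid message have more Slc6a9 in both lines (r = 0.871 for CDS and 0.880 for PAS libraries).

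The genes with the most similar profile across libraries are given as a description, over 15 libraries that share groups and lines. Slc3a2 was closest to Aars (r = 0.919), the alanyl-tRNA synthetase gene, then to Aamp and Mars (0.882 each). Slc6a9 was closest to Foxo4 (0.923), 2410015M20Rik (0.914) and Slc25a37 (0.906), the iron importer of red cell mitochondria. Slc38a2 was closest to Zc3h11a (0.896), Clk1 (0.891) and Clk4 (0.879), the last pair being kinases of splicing factors. Slc7a5 was closest to Ctdp1 (0.863), Slc38a1 to Sf3b4 (0.921), Slc7a6 to Dera (0.898), Slc1a5 to Bex2 (0.896), Slc7a3 to Wdr60 (0.858), Slc1a4 to Nsmf (0.841) and Slc7a1 to Lix1l (0.790). Between transporters the highest values were 0.652 (Slc7a3 and Slc3a2) and 0.637 (Slc7a5 and Slc3a2), and the lowest was -0.404 (Slc7a1 and Slc7a6).

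The 2 lines did not differ detectably in any of the 10 changes. The difference of log2 changes, PAS minus CDS, ran from -0.20 ± 0.31 (SE) for Slc7a3 to 0.05 ± 0.06 (SE) for Slc38a1, with edgeR adjusted p of 0.995 or more. For Slc3a2 the difference was -0.03 ± 0.06 and for Slc7a5 it was -0.03 ± 0.12 (SE). Whole-gene counts of Atf4 moved in opposite directions under these labels, while the values of Slc3a2, Slc7a5, Slc7a3, Slc1a4, Slc7a1 and Slc6a9 were negative in both. Between the controls of the lines no difference was detected in the 10 either, which does not show that their levels were equal. None of the 10 was called between PAS and CDS controls, where 0.143% of all genes were. At an unadjusted edgeR p under 0.05 there were 0 of 10, against 9.6% of all genes. With 10 genes, a count of 0 does not set them apart from that share. The interval of the ratio, PAS over CDS controls, was narrow for Slc3a2 (0.963 to 1.08). It was wide for Slc6a9 (0.708 to 1.02) and Slc7a3 (0.745 to 1.41). Slc6a9 had the largest value there, at -0.24 ± 0.13, followed by Slc1a4 at -0.13 ± 0.11 and Slc38a2 at -0.10 ± 0.06 (SE).

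Other genes of amino acid handling give the scale of these changes, in lists also drawn up with earlier results of these data known. Of 23 further plasma membrane carriers 21 could be tested, and none was called in either line; 12 had negative values in the CDS line, and 13 in the other line, with medians of -0.01 and -0.01. The most abundant, Slc38a4, another small neutral amino acid carrier, had 335 ± 19.98 CPM in controls (SD, n = 7) and a mean change of -0.04 ± 0.03 (SE). Per length it had 78.6 ± 4.69 CPM per kb in controls (SD, n = 7), above the 46.8 of Slc38a2. Slc6a6, the taurine carrier, had 264 ± 6.404 CPM, or 31.2 ± 0.757 CPM per kb, in controls (SD, n = 7). Its mean change was -0.04 ± 0.03 (SE). None of 6 lysosomal carriers and 7 mitochondrial carriers was called. The lysosomal set was negative for 5 of 6 in the CDS line and 0 of 6 in the PAS line, with Ctns, the cystine exporter, at -0.01 ± 0.07 and 0.07 ± 0.07 (SE). Among the mitochondrial carriers of aspartate and glutamate, Slc25a13 had a mean change of 0.02 ± 0.04 and Slc25a12 of 0.01 ± 0.03 (SE).

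Calls were made among the genes that act after uptake. Of 20 cytosolic aminoacyl-tRNA synthetases, 5 fell in the CDS line, 1 in the PAS line and 6 in the mean of both. Cars, which charges tRNA with cysteine, fell to 0.727 of control in CDS knockouts and 0.708 in PAS knockouts (edgeR adjusted p = 0.000506 and 0.00203). Iars, Yars and Aars, for isoleucine, tyrosine and alanine, fell to 0.844, 0.851 and 0.836 in the mean of both (edgeR adjusted p = 3.83e-05, 0.00017 and 0.000317). Of 17 enzymes of amino acid and one-carbon synthesis, 2 fell in the CDS line, 0 in the PAS line and 5 in the mean. Phgdh, the entry enzyme of serine synthesis, fell to 0.829, Aldh1l2 to 0.813, Pycr1, the last enzyme of proline synthesis, to 0.759 and Mthfd2 to 0.838 in the mean (edgeR adjusted p = 0.000858, 0.00964, 0.00636 and 0.0175). The medians in the CDS line were -0.07 for the synthetases, -0.08 for the enzymes and -0.09 for the 10 transporters. Those of the PAS line were -0.07, -0.02 and -0.07, and those of the mean of both -0.06, -0.09 and -0.08. The ratio of Slc7a5 was thus near that of Yars, with an SE of 0.06 against 0.03, and Slc3a2 had a like SE of 0.03 on a change of -0.11 against -0.23 for Yars.

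**Figure D5:**
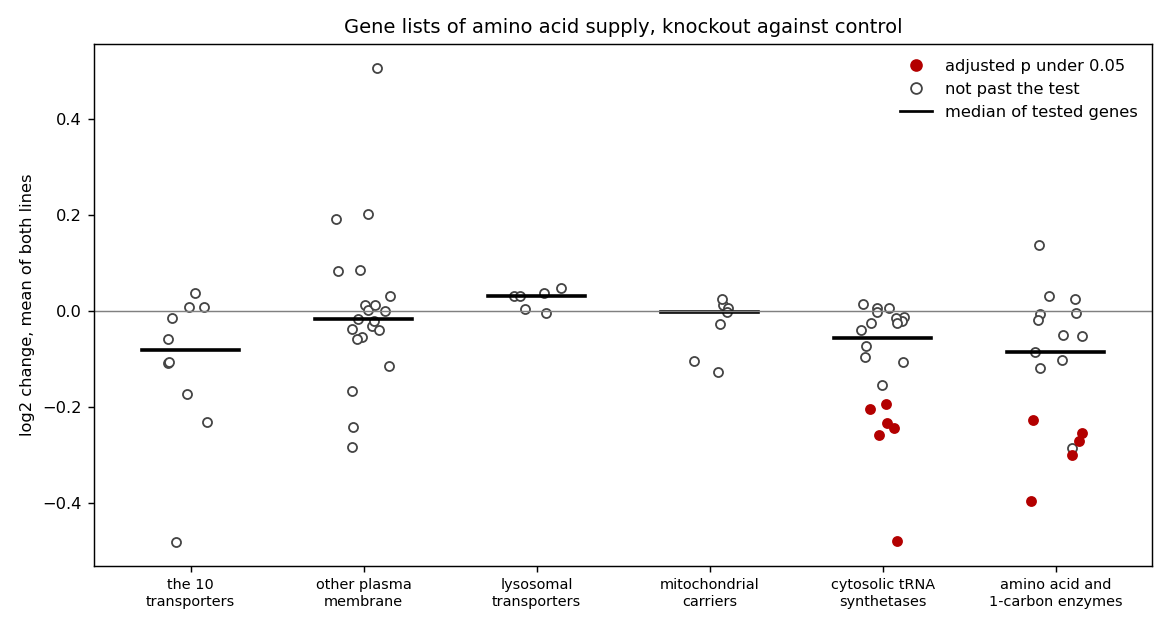
Log2 change in the mean of both lines for each tested gene (points) of the 10 transporters and 5 other lists of amino acid handling, with filled points for genes called by adjusted p and a line at each list's median. Called genes, all lower, lie in the synthetase list (6) and the enzyme list (5), and none lies in the 4 transporter lists.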

How the data were processed

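RNA-seq of 15 ventricle libraries was used in the 4 groups the titles name. The files the authors deposited give raw counts of fragments for each gene and, as another column, exon length in bases, made with featureCounts 2.1.1 over GENCODE release 37 for mouse (GRCm39) with no strand option and a separate run for each line, per the file headers. Listed without roles in the submitters' processing notes are HISAT2 2.2.1, STAR 2.7.11b, fastp, FastQC and DESeq2. The design text names a stranded poly(A) kit, the extraction protocol rRNA depletion, so the library type is not settled. Symbols came from GENCODE release 21 by identifier (51487 of 78317).

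edgeR 4.0.16 (R 4.3.3) kept 20269 genes (filterByExpr, minimum count 10), scaled by TMM and fitted 1 quasi-likelihood model with a mean per group (11 residual degrees of freedom). Benjamini-Hochberg adjustment ran over all kept genes, with calls at 0.05. SEs derive from the F statistic. Intervals are 95%. The scripts were tested on simulated counts. DESeq2 1.42.0, limma 3.58.1 (voom) and the settings of the closing section were alternatives. All members are named, with up to 4 called genes of each other list, or its 1 or 2 most abundant per length. For each member, 1 to 3 of the genes most alike with at least 5 CPM are named. Members and lists were chosen with earlier results of these data known. Replicates are biological per the design text, which gives 4 per genotype; 3 PAS controls were analysed here.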

Additional observations from a re-analysis of the deposited data

Results flagged for a closer look

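In 30 groups of 4 libraries (10 transporters in 3 groups), 2 had a library far from the other 3, by a gap of more than 0.829 of the range; chance flags about 1 group in 20. Slc7a6 stood at 75.16 CPM in CDS knockout 3, with the others at 70.37 to 71.12 (gap over range 0.843), and this is the library that stands apart from its replicates over all genes. Slc38a2 stood at 416.6 CPM in CDS knockout 1, with the others at 438.0 to 440.8 (0.886).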

How the results depend on the processing

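The number of transporters called changed in few settings, each time through Slc7a5. It went from 0 to 1 with no filter on low counts (CDS line and mean of both lines) and to 1 in the mean with the erythroid covariate. Leaving out 1 library at a time gave 0 to 1 in the mean, the 1 coming without CDS control 2, and 0 in the other comparisons. The cause was not tested. The median change of the 10 stayed negative in the CDS line (-0.09 to -0.07), the PAS line (-0.11 to -0.04) and the mean (-0.09 to -0.06) in every setting run. Slc3a2, Slc7a5, Slc7a3, Slc1a4 and Slc7a1 kept a negative sign there in each.

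Counts of called genes over all genes moved more. In the CDS line, the PAS line, the mean, the difference and the controls they were 11, 2, 16, 1 and 29, against 31, 7, 28, 3 and 201 with no filter. DESeq2 gave 20 in the CDS line, 7 in the PAS line, 2 in the difference and 102 between controls, and limma-voom 2 in the difference. A fit of only the groups compared gave 1 in the PAS line and 10 between controls. Without CDS knockouts 3 and 4 the mean had 10, and leaving out 1 library gave 1 to 2 in the difference and 15 to 43 between controls. With the replicate number as a block, 0 transporters were called in the 4 comparisons so fitted, and genes called went from 16 to 8 in the mean and from 2 to 1 in the PAS line. Same-numbered libraries did not deviate together from their group means (correlations of -0.203 to 0.0636). With so few libraries in a group, these values cannot show whether the numbers pair libraries. The block was not run for controls against controls, nor the fit of only the groups compared for the mean and difference, which need all 4 groups. Depth limits Slc7a3, at 17 to 59 fragments a library.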
